A study of Mus musculus with 6 samples.

Results

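The 4 mouse Hox gene clusters were described by the chromatin peaks that touch them in γδ T cell precursors. The members are the 38 genes Hoxa2 to Hoxa13, Hoxb1 to Hoxb13, Hoxc4 to Hoxc13 and Hoxd1 to Hoxd13. A peak was taken as a Hox peak by position alone, when it touched one of 4 fixed windows of the mouse build mm9. These were chr6:52080000-52240000 for Hoxa, chr11:96040000-96240000 for Hoxb, chr15:102730000-102880000 for Hoxc and chr2:74480000-74610000 for Hoxd. The windows span 160, 200, 150 and 130 kb, 640 kb in all. They held 317 of the 74959 peaks in 5 deposited lists, 78 at Hoxa, 96 at Hoxb, 58 at Hoxc and 85 at Hoxd.

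Chromatin immunoprecipitation with sequencing (ChIP-seq) was applied to CD24+ γδ thymocytes of C57BL/6 mice with the genotype TCRbeta KO.Sox13 ECFP KI/+. All groups, the input included, carry this genotype: no TCRβ gene, and 1 Sox13 allele with a knocked-in cyan fluorescent protein (CFP). Cells with high CFP were called Sox13hi, and cells with low or no CFP Sox13lo. The labels do not say how many animals were pooled, and the Sox13lo gate takes in low and absent CFP together. SOX13, an HMG-box transcription factor, was mapped in Sox13hi cells only, from 1000000 cells, with an Abcam antibody. Trimethylation of histone H3 at lysine 4 (H3K4me3, Millipore antibody) and at lysine 27 (H3K27me3, Abcam antibody) was mapped in both populations, from 250000 cells each. An input of both populations is listed and was not analysed here. The labelled cell type was not checked against marker genes, since gene positions on the build of the files were not at hand. Each group is 1 library, so the differences described have no replicate error and no test was made. Intervals are 95% exact binomial intervals, which take peaks as independent of each other and hold counting error alone.

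Hox genes encode homeodomain transcription factors that give cells along the body axis their positional identity, and they lie side by side in an order that mirrors where and when they are switched on. Outside their domain of activity the clusters are a textbook target of Polycomb repressive complex 2, which deposits H3K27me3, while H3K4me3 marks active or poised promoters. The presence of both marks at one site is called bivalent. In blood cells, members of the Hoxa and Hoxb clusters are known for their activity in stem and progenitor cells, Hoxa9 among them.

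All 38 genes were found in a RefSeq gene table on build GRCm38.p6. In ascending position, it orders chromosome 6 as Hoxa2, Hoxa3, Hoxa4, Hoxa5, Hoxa6, Hoxa7, Hoxa9, Hoxa10, Hoxa11 and Hoxa13, and chromosome 11 as Hoxb13, Hoxb9, Hoxb8, Hoxb7, Hoxb6, Hoxb5, Hoxb3, Hoxb4, Hoxb2 and Hoxb1. Chromosome 15 runs Hoxc13, Hoxc12, Hoxc11, Hoxc10, Hoxc9, Hoxc8, Hoxc6, Hoxc5 and Hoxc4, and chromosome 2 Hoxd13, Hoxd12, Hoxd11, Hoxd10, Hoxd9, Hoxd8, Hoxd3, Hoxd4 and Hoxd1. The peaks are on mm9, a different build, so no peak was assigned to a gene and peaks are named by position. The gene table serves for names and order only.

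CpG content was read from the promoters of the members, because CpG-rich promoters are the usual substrate of both histone marks. RefSeq promoter entries of GRCm38.p6, which run from 250 bases before to 50 bases after a gene's start, covered 22 members with 24 promoters. Of the Hoxb genes only Hoxb1, Hoxb4 and Hoxb8 had an entry, and of the Hoxc genes only Hoxc4. The values thus describe mostly Hoxa and Hoxd promoters. The ratio of observed to expected CpG ran from 0.257 over a median of 0.626 to 1.02, against a median of 0.384 over all 32851 promoters. In 6 of the 24 it was below that median. It was at least 0.6 in 12 of 24 Hox promoters (50%, 29.1 to 70.9%) and in 35.8% of all promoters, a share inside that interval. The promoter with the highest ratio in each cluster is printed here as the 250 bases before the start, 5′ to 3′ on the gene's strand, with every CpG in capitals. Hoxa5 lies on the minus strand at chr6:52204588-52204837, and the others on the plus strand, Hoxb8 at chr11:96281655-96281904, Hoxc4 at chr15:103034145-103034394 and Hoxd3 at chr2:74711743-74711992.
Hoxa5: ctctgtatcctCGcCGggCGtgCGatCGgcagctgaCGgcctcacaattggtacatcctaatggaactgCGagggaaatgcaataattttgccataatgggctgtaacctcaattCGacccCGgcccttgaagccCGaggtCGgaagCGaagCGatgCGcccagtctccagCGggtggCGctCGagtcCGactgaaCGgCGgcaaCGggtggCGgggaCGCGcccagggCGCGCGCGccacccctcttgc
Hoxb8: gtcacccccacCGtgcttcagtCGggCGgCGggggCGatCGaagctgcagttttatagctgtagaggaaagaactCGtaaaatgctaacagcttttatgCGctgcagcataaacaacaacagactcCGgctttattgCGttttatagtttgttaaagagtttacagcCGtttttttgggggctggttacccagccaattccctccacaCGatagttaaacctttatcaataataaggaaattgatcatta
Hoxc4: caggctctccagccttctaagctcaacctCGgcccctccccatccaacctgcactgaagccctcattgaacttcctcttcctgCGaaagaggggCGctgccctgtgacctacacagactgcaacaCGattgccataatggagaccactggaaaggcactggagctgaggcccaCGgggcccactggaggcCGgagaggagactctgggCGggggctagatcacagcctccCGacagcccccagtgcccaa
Hoxd3: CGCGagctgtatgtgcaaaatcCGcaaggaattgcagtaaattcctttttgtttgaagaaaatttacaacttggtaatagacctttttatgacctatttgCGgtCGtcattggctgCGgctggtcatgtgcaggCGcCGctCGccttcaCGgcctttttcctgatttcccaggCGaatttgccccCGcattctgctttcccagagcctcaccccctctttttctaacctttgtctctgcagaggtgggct
The 250 bases hold 28 CpGs for Hoxa5, 12 for Hoxb8, 8 for Hoxc4 and 12 for Hoxd3, so the Hoxa5 stretch is the densest of the 4 and Hoxc4, the only Hoxc gene with an entry, the sparsest. A SOX-type motif, AACAAT on either strand, was in 0 of 24 Hox promoters and in 10.7% of all promoters. No interval was computed for this share, and 24 promoters are too few to read it as an absence. A TCF-type motif, CTTTGA on either strand, which does not contain or lie within the first, was in 4 of 24 Hox promoters (16.7%: Hoxd12, Hoxd8, Hoxa10 and Hoxa11) against 16.0% of all. These counts describe letters in the window and not binding.

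H3K27me3 had the most peaks in the Hox windows. They were separate peaks that covered 9.41% of the windows in Sox13hi and 8.49% in Sox13lo. Sox13hi cells had 128 H3K27me3 peaks there and Sox13lo cells 115, against 38 and 32 H3K4me3 peaks and 4 SOX13 peaks. By cluster, Sox13hi H3K27me3 had 26 peaks at Hoxa, 44 at Hoxb, 25 at Hoxc and 33 at Hoxd, and Sox13lo H3K27me3 had 26, 32, 25 and 32. The count was equal between populations at Hoxa and Hoxc, within 1 peak at Hoxd, and 12 peaks higher in Sox13hi at Hoxb. Covered sequence came to 14.85, 16.85, 9.6 and 18.9 kb in Sox13hi and to 13.45, 14.5, 10.4 and 16 kb in Sox13lo, in the order Hoxa to Hoxd. Hoxd was the most covered per length, with 14.5% of its window in Sox13hi and 12.3% in Sox13lo, and Hoxc the least, with 6.4% and 6.93%.

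**Figure D1:**
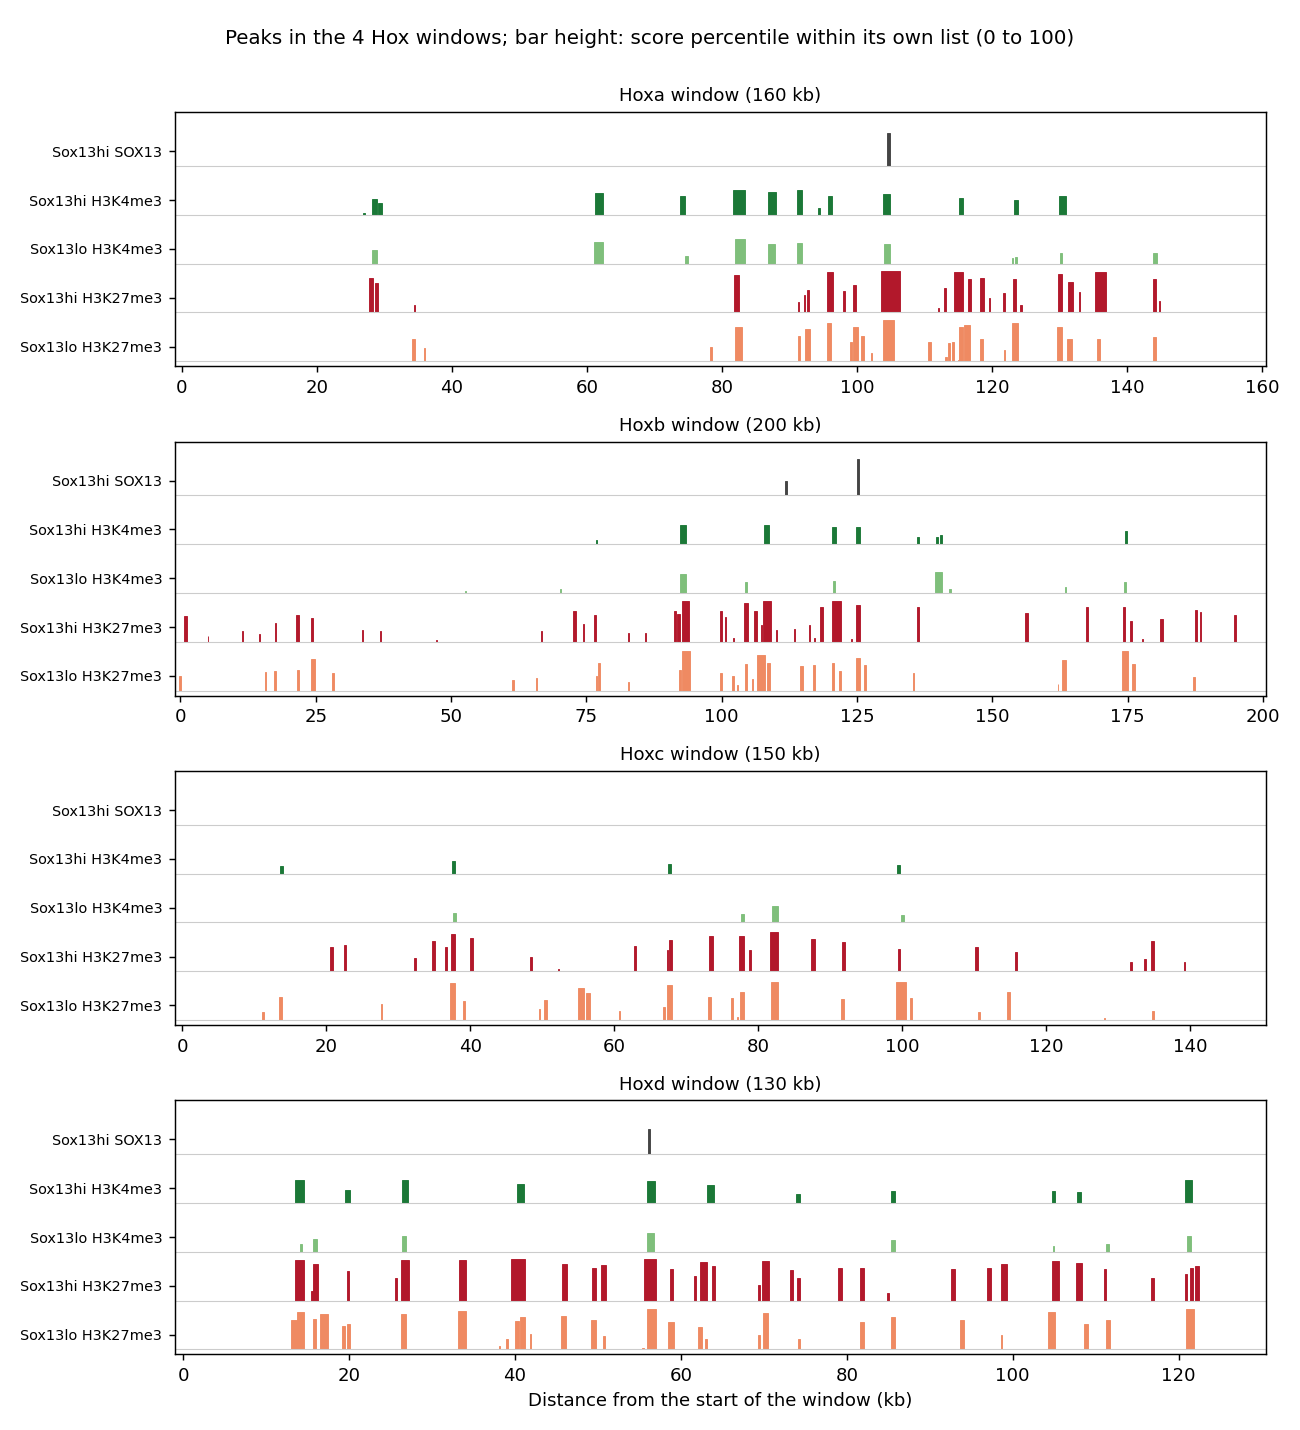
Peaks along the 4 Hox windows, with the distance from the start of the window in kb on the x axis and 1 row per library. Each bar is a peak drawn at its width, and its height is the percentile of its score within its own list, from 0 to 100. H3K27me3 bars are frequent in every window, while the first part of the Hoxa window has few, with 3 H3K27me3 peaks in its first 80 kb in each population.

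Against the genome, the density of H3K27me3 peaks in the windows was 35.6 times the list-wide density in Sox13hi and 64.2 times in Sox13lo. The windows held 20 peaks per 100 kb in Sox13hi and 17.97 in Sox13lo, while the whole genome held 0.562 and 0.280. For H3K4me3 the ratio was 7.67 and 7.15, and for SOX13 it was 1.20. Whole-genome peak numbers thus differed far more between the populations for H3K27me3 than the Hox numbers did. These densities, and the other measures named in the methods as added, were computed after the values were seen.

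Each window was then set against all other stretches of its own length, a complete tiling of each chromosome with 16508, 13207, 17607 and 20316 tiles for Hoxa to Hoxd. By number of H3K27me3 peaks in Sox13hi, the share of tiles with at least as many was 0% for Hoxa, Hoxb and Hoxd and 0.0114% (2 tiles) for Hoxc. In Sox13lo it was 0% for each of the 4. The highest tile elsewhere had 24 peaks against 26 at Hoxa, 40 against 44 at Hoxb, 26 against 25 at Hoxc and 22 against 33 at Hoxd in Sox13hi. In Sox13lo the highest tile had 23, 24, 19 and 19 peaks, against 26, 32, 25 and 32 in the Hox windows.

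By covered sequence a few tiles reached or exceeded the Hox windows. In Sox13hi they were 2 for Hoxa (0.0121%), 1 for Hoxb (0.00757%), 8 for Hoxc (0.0454%) and 2 for Hoxd (0.00984%). In Sox13lo they were 1 for Hoxa (0.00606%), 1 for Hoxb (0.00757%), 3 for Hoxc (0.017%) and 2 for Hoxd (0.00984%). Every tile above Hoxa, Hoxb or Hoxd lay on chromosome Y between 2720001 and 3040000, where all 5 lists, SOX13 included, had many peaks. The tile from 2720001 to 2880000 held 55 SOX13 peaks, 23 and 25 H3K4me3 peaks and 22 and 23 H3K27me3 peaks, Sox13hi first. On autosomes alone, 0 tiles reached Hoxa, Hoxb or Hoxd in either population. The autosomal tiles at or above Hoxc in Sox13hi covered 9600 to 12150 bp, the highest at chr15:98550001-98700000, against 9600 bp at Hoxc.

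H3K4me3 stood out less from the tiles than H3K27me3 did. At Hoxa the mark had 14 peaks covering 11.15 kb in Sox13hi and 11 covering 8.05 kb in Sox13lo, and 0.424% and 1.24% of tiles had at least as much covered (by number of peaks, 0.182% and 0.521% had at least as many). Hoxd had 11 peaks with 7.75 kb in Sox13hi and 8 with 3.7 kb in Sox13lo, reached by 0.901% and 5.33% of tiles (by number, 0.335% and 0.916%). Hoxb had 9 peaks in each population, with 5.25 and 4.8 kb, reached by 6.06% and 6.5% of tiles (by number, 2.17% and 1.88%). Hoxc had 4 peaks in each population, with 1.75 and 2.1 kb, reached by 20.8% and 16.1% (by number, 9.23% and 8.46%). H3K4me3 at Hoxc thus lay within the range of ordinary stretches of this length, while H3K27me3 at the same window was in the extreme tail.

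**Figure D2:**
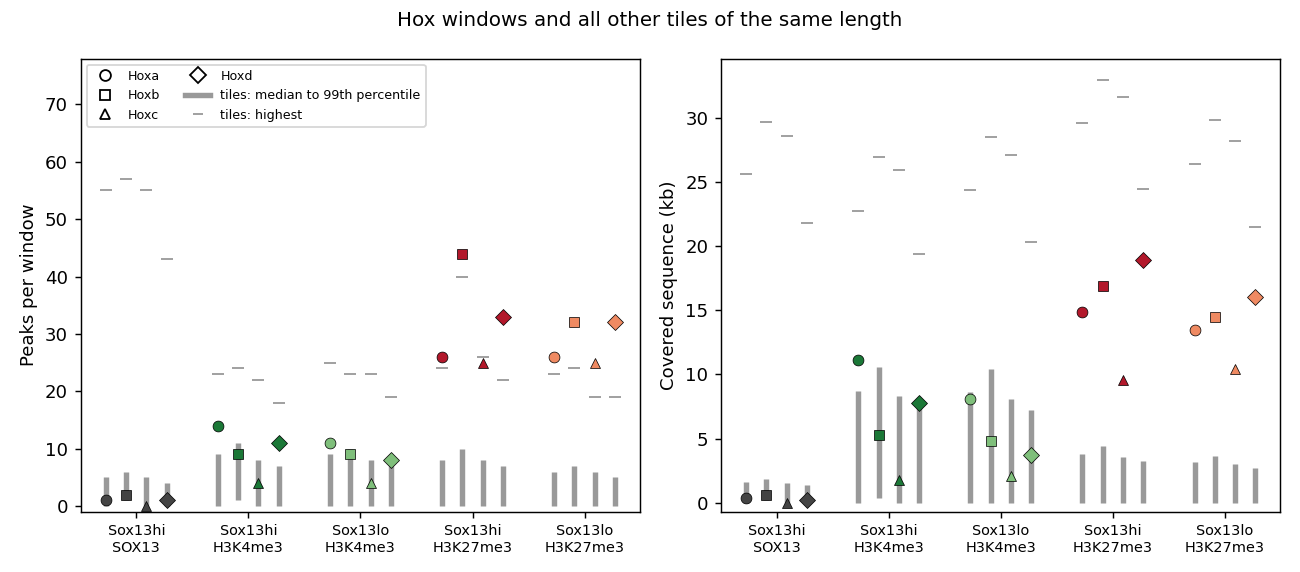
Peaks per window (left, a count) and covered sequence (right, in kb) for each Hox window, drawn as a symbol per cluster, with the tiles of the same length as a grey bar from their median to their 99th percentile and a dash at their highest value. All 8 H3K27me3 symbols lie above the grey bars in both panels, and the dashes above them on the right come from chromosome Y.

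The score that the authors gave each peak, whose definition the sources used here do not give, was used only to rank peaks within a list. Its percentile for Sox13hi H3K27me3 Hox peaks had a lowest value of 4.48, a median of 68.4 and a highest of 99.8. In Sox13lo these were 0.656, 54.8 and 99.1. Of the Sox13hi H3K27me3 Hox peaks, 20 of 128 (15.6%) were in the highest score decile, against 10% of the list by construction. In Sox13lo 11 of 115 (9.57%) were, against 9.99% of the list, a share near the background. No interval was computed for either share. The deciles also differ in size, 1485 peaks in Sox13hi and 739 in Sox13lo, so the populations were not compared by them. By cluster the median percentile was highest at Hoxd, 78.9 in Sox13hi and 69.4 in Sox13lo, and lowest at Hoxb, 58.1 and 48.2. Hoxd also held the most peaks of the highest decile, 9 of 20 in Sox13hi and 4 of 11 in Sox13lo.

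H3K4me3 Hox peaks ranked low. Their percentiles had a median of 38.1 and a highest value of 60.4 in Sox13hi, and a median of 27.4 and a highest of 60.2 in Sox13lo. In Sox13hi 0 of 38 and in Sox13lo 0 of 32 were in the highest decile, which holds 10% of each list. The best rank was 8073 of 20444 in Sox13hi and 7338 of 18471 in Sox13lo, both at Hoxa. H3K4me3 peaks were also narrower in the Hox windows, with a median width of 600 bp in Sox13hi and 450 bp in Sox13lo against 800 bp in each whole list. H3K27me3 peaks were wider there, at a median of 400 bp in each population against 300 and 350 bp.

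**Figure D3:**
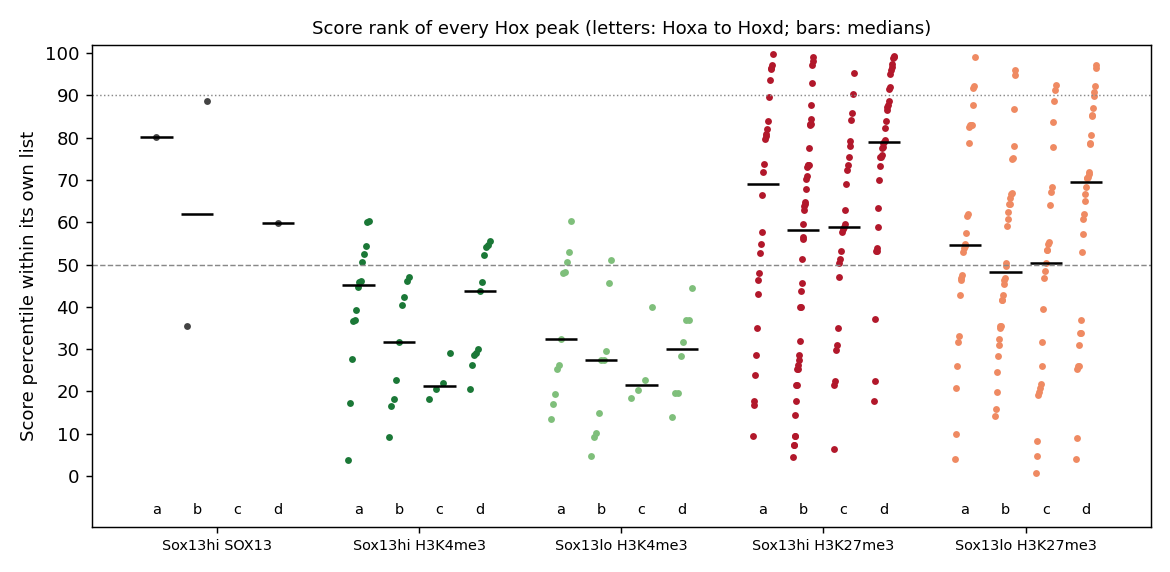
Percentile of the score within its own list (y axis, 0 to 100) for each Hox peak, with 1 point per peak, a column per cluster (a to d) in each library, and a bar at the median. The dashed line is the list's median and the dotted line the start of its highest decile. No H3K4me3 point lies above 60.4, while H3K27me3 points reach 99.8 in Sox13hi and 99.1 in Sox13lo.

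Within Hoxa, both marks leaned to the same side of the window. In Sox13hi the first 80 kb, at the lower coordinates, held 3 H3K27me3 peaks covering 1.1 kb and the second 80 kb held 23 covering 13.75 kb. Sox13lo had 3 peaks with 0.85 kb and 23 with 12.6 kb. H3K4me3 was less uneven, with 5 peaks and 3.25 kb against 9 and 7.9 kb in Sox13hi, and 3 peaks with 2.45 kb against 8 with 5.6 kb in Sox13lo. The longest stretch of Hoxa between H3K27me3 peaks was 47.2 kb in Sox13hi, chr6:52114551-52161750, and 42.15 kb in Sox13lo. It was not bare of H3K4me3. A peak at chr6:52141251 in Sox13hi had a score of 38.75, and its Sox13lo counterpart from 52141101 to 52142399 had 63.25, the second highest H3K4me3 score at Hoxa in that list.

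The highest-scoring H3K27me3 peak of all the Hox windows was at Hoxa, and it was found in both populations. In Sox13hi it ran from 52183501 to 52186299 on chromosome 6, 2800 bp wide, with a score of 259 and rank 31 of 14842. In Sox13lo it ran from 52183901 to 52185499, 1600 bp wide, with a score of 183.25 and rank 67 of 7395. The site also held H3K4me3 in Sox13hi and Sox13lo, as well as a SOX13 peak. The next Hoxa H3K27me3 peak that both lists placed among their highest 3 began at 52175501 in each, with scores of 112.5 in Sox13hi and 86.5 in Sox13lo. The remaining one was different in each population: chr6:52215201-52216849 with 105.5 in Sox13hi, and chr6:52202901-52203849 with 88.5 in Sox13lo. The widest H3K4me3 peak at Hoxa, 1800 bp from 52161601 to 52163399 in Sox13hi (score 52), had the highest Hoxa score in that list. Its Sox13lo counterpart, from 52161851 to 52163449 with 78.75, led that list too.

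At Hoxb, H3K27me3 was densest in the middle of the window, and 2 of 20 stretches of 10 kb were empty in Sox13hi and 6 of 20 in Sox13lo. The densest 10 kb were the same in both populations, 100 to 110 kb from the window's start, with 3.25 kb covered in Sox13hi and 3 kb in Sox13lo. Joining H3K27me3 peaks at most 5 kb apart gave a run of 15 peaks over 25.85 kb in Sox13hi, which ranked 5 by number of peaks among 10844 such runs of the genome. In Sox13lo the longest Hoxb run had 7 peaks over 9.15 kb and ranked 27 among 4790. The highest-scoring Sox13hi H3K27me3 peaks were chr11:96160351-96162099 (score 173.25, 1750 bp), 96132751 to 96133899 (133.5) and 96147701 to 96149049 (114). In Sox13lo they were 96132651 to 96134149 (117, 1500 bp), 96214001 to 96214999 (105) and 96146601 to 96148049 (68.5). The sites beginning at 96132751 and 96147701 were thus among the highest 3 in both. The Sox13lo list also had the longest gap between Hoxb H3K27me3 peaks, 33.05 kb, against 19.6 kb in Sox13hi, at another place.

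Of the Hoxb regions with H3K4me3 and no H3K27me3 in either population, 1 had H3K4me3 in both populations and 3 in Sox13lo alone. At the shared one, the Sox13lo peak, chr11:96179451-96180749, had a score of 59, the highest H3K4me3 score at Hoxb, and a width of 1300 bp. Sox13hi had 2 narrower H3K4me3 peaks within it, of 400 and 500 bp, at percentiles 16.6 and 22.7 of their list, while the Sox13lo peak was at percentile 51.0. Of the 3 highest-scoring Sox13hi H3K4me3 peaks at Hoxb, the one from 96132251 (score 31) had a Sox13lo match, and those from 96147851 (29.75) and 96164901 (25) had none. The last of these carried a SOX13 peak.

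Hoxc was the least covered window in every list. Of its Sox13hi H3K27me3 peaks, 9 of 25 (36%, 17.97 to 57.48%) had a match in Sox13lo, against 24.5% of the whole list. Of its Sox13lo H3K27me3 peaks, 8 of 25 (32%, 14.95 to 53.5%) had a match in Sox13hi, against 49.1%. Of its H3K4me3 peaks, 1 of 4 matched in each population (25%, 0.631 to 80.6%), against 69.7% of the Sox13hi and 78.1% of the Sox13lo list. Each of these intervals includes the share of its list. The highest H3K27me3 peak lay at one site in both, chr15:102811651-102812749 in Sox13hi (score 90.5, 1100 bp) and 102811801 to 102812799 in Sox13lo (90). Sox13lo had an H3K4me3 peak there, 102811901 to 102812699 with a score of 37.5, and Sox13hi had none. The site from 102767351 to 102767899 (58.75 in Sox13hi) and from 102767201 to 102767849 (73.5 in Sox13lo) was also among the 3 highest of both. The widest Sox13lo peak, 102829201 to 102830499 (84.25, 1300 bp), was not among the 3 highest in Sox13hi. One Hoxc region, chr15:102743451-102743999, had H3K4me3 alone in Sox13hi and H3K27me3 alone in Sox13lo. It was the sole such region of 178 in the 4 windows (0.562%, 0.0142 to 3.09%). In the genome the share was 0.456% of regions, so the windows were near the background.

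Hoxd had H3K27me3 in nearly every 10 kb stretch, with 1 of 13 empty in each population, and the shortest gaps, at most 7.45 kb in Sox13hi and 9.15 kb in Sox13lo. In Sox13lo 14 H3K27me3 peaks at most 5 kb apart formed a run of 30 kb, ranked 2 among 4790 runs. In Sox13hi the longest Hoxd run had 9 peaks over 24.6 kb and ranked 30 among 10844. By number of peaks, the longest runs ranked 30 and 13 at Hoxa and 88 and 27 at Hoxc, Sox13hi first. The 3 highest Sox13hi peaks were chr2:74535501-74537049 (score 176.75), 74519551 to 74521199 (167.75, 1650 bp) and 74506301 to 74507249 (156.5). In Sox13lo they were 74600851 to 74601799 (130.5), 74535951 to 74536949 (123.5) and 74513101 to 74514099 (88.75, 1000 bp). Only the site at 74535501 was among the highest 3 of both. One Sox13hi H3K27me3 peak in its list's highest decile, 74587651 to 74588299 (score 63), had no Sox13lo peak, and it lay on H3K4me3 in Sox13hi and not in Sox13lo. Among Hox histone peaks of a highest decile, no other was found in 1 population alone. In that decile of the Sox13hi H3K27me3 list, 19 of 20 Hox peaks (95%) and 88.1% of the peaks outside had a Sox13lo match, a difference with an interval of -13.1 to 12.1 points.

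A peak counted as matched when at least 1 bp of it met a peak of the same mark in the other population. Of the Sox13hi H3K27me3 Hox peaks, 63 of 128 (49.2%, 40.3 to 58.2%) had a Sox13lo peak, against 24.5% of the whole list and 24.3% outside the windows. The difference from the peaks outside was 24.9 percentage points (16.0 to 33.9). Below the highest score decile, 40.7% of Hox peaks and 17.2% of the others matched, a difference of 23.5 points (14.1 to 33.4). From the Sox13lo list, 66 of 115 (57.4%, 47.8 to 66.6%) matched, against 49.1% of the whole list, and the difference from the 49.0% outside, 8.38 points, had an interval of -1.25 to 17.6. By cluster, matched Sox13hi peaks were 18 of 26 at Hoxa, 15 of 44 at Hoxb, 9 of 25 at Hoxc and 21 of 33 at Hoxd. H3K27me3 peaks covered 9.41% of the windows in Sox13hi and 8.49% in Sox13lo, against 0.196% and 0.122% of the genome. A match of 1 bp is thus easier to meet in the windows. How far this raises the matched shares there was not tested.

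For H3K4me3 the matched share was lower in the windows than in the list. In the Hox windows 20 of 38 Sox13hi peaks (52.6%, 35.8 to 69.0%) had a Sox13lo match, against 69.7% of the list, and 19 of 32 Sox13lo peaks (59.4%, 40.6 to 76.3%) matched, against 78.1%. The differences from peaks outside were -17.1 points (-33.9 to -0.659) and -18.7 points (-37.4 to -1.77). Compared only with peaks below the highest decile, where all Hox H3K4me3 peaks lie, they were -13.7 points (-30.5 to 2.71) and -16.3 points (-35.0 to 0.673), with intervals that include 0. Neighbouring peaks of 1 library are not independent, so these intervals are too narrow.

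Unmatched H3K27me3 peaks in the Hox windows lay close to peaks of the other population. Of 65 Sox13hi peaks without a match, 58 (89.2%) had a Sox13lo H3K27me3 peak within 5 kb, with a median gap of 900 bp, against 24.5% of such peaks in the whole list. Of 49 unmatched Sox13lo peaks, 46 (93.9%) had a Sox13hi peak within 5 kb, with a median gap of 750 bp, against 49.9%. The density of peaks in the windows is part of this measure, since the median distance between neighbouring Sox13hi H3K27me3 peaks was 1.2 kb at Hoxa, 2.75 at Hoxb, 3.65 at Hoxc and 2.55 at Hoxd, against 54.6 kb in the genome. Per 10 kb of window, H3K27me3 was present in both populations in 44 of 64 stretches, in Sox13hi alone in 5, in Sox13lo alone in 4 and in neither in 11. Of the 5 stretches with Sox13hi alone, 4 were at Hoxb. Across the 64 stretches covered sequence correlated with a Pearson r of 0.813 and a Spearman rho of 0.785, and by cluster Pearson r was 0.913 at Hoxa, 0.865 at Hoxb, 0.407 at Hoxc and 0.690 at Hoxd. The stretches share their libraries and are neighbours, so these values are descriptions.

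As a share of each list, the Hox windows weighed more in the shorter Sox13lo H3K27me3 list. They held 1.56% of its 7395 peaks (1.29 to 1.86%) and 0.862% of the 14842 Sox13hi peaks (0.720 to 1.02%), a difference of -0.693 points (-1.03 to -0.378), Sox13hi minus Sox13lo. With the Sox13hi list limited to its 7395 highest-scoring peaks, 90 remained in the windows against 115, or 1.22% against 1.56%, and the interval of the difference, -0.727 to 0.0483 points, included 0. Those 90 peaks covered 53.55 kb against 54.35 kb in Sox13lo. The H3K4me3 shares were 0.186% and 0.173%, with a difference of 0.0126 points (-0.0769 to 0.101). Whether list length reflects depth, threshold or the cells cannot be told apart here.

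H3K4me3 in the Hox windows lay mostly on H3K27me3. In Sox13hi 27 of 38 H3K4me3 Hox peaks (71.1%, 54.1 to 84.6%) overlapped an H3K27me3 peak of the same population, against 14.4% of the whole list. In Sox13lo 24 of 32 did (75.0%, 56.6 to 88.5%), against 14.2%. The differences from peaks outside the windows were 56.8 points (39.8 to 70.3) and 60.9 points (42.5 to 74.4). By cluster the counts were 8 of 14 at Hoxa, 6 of 9 at Hoxb, 3 of 4 at Hoxc and 10 of 11 at Hoxd in Sox13hi, and 7 of 11, 5 of 9, 4 of 4 and 8 of 8 in Sox13lo. The H3K4me3 peaks off H3K27me3 were thus mainly at Hoxa and Hoxb. By bases, 55.0% of the H3K4me3 sequence in Sox13hi and 59.8% in Sox13lo was also H3K27me3, against 8.61% and 7.90% in the genome. H3K27me3 covers far more of the windows than of the genome, and how far this raises the overlap was not tested.

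Seen from H3K27me3 the overlap was not higher than elsewhere. In Sox13hi 31 of 128 Hox peaks (24.2%, 17.1 to 32.6%) overlapped H3K4me3, against 22.1% of the list, and the difference from the peaks outside was 2.16 points (-5.01 to 10.5). In Sox13lo 24 of 115 did (20.9%, 13.9 to 29.4%), against 38.6%, a difference of -18.0 points (-25.1 to -9.34). H3K27me3 peaks on H3K4me3 were the higher-scoring ones. Their median percentile was 87.7 in Sox13hi and 84.0 in Sox13lo, while that of Hox H3K27me3 peaks without H3K4me3 was 59.0 and 47.4. Of the Hox H3K27me3 peaks in the highest decile, 14 of 20 in Sox13hi and 9 of 11 in Sox13lo were on H3K4me3, against 85.3% and 90.5% of highest-decile peaks outside.

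**Figure D4:**
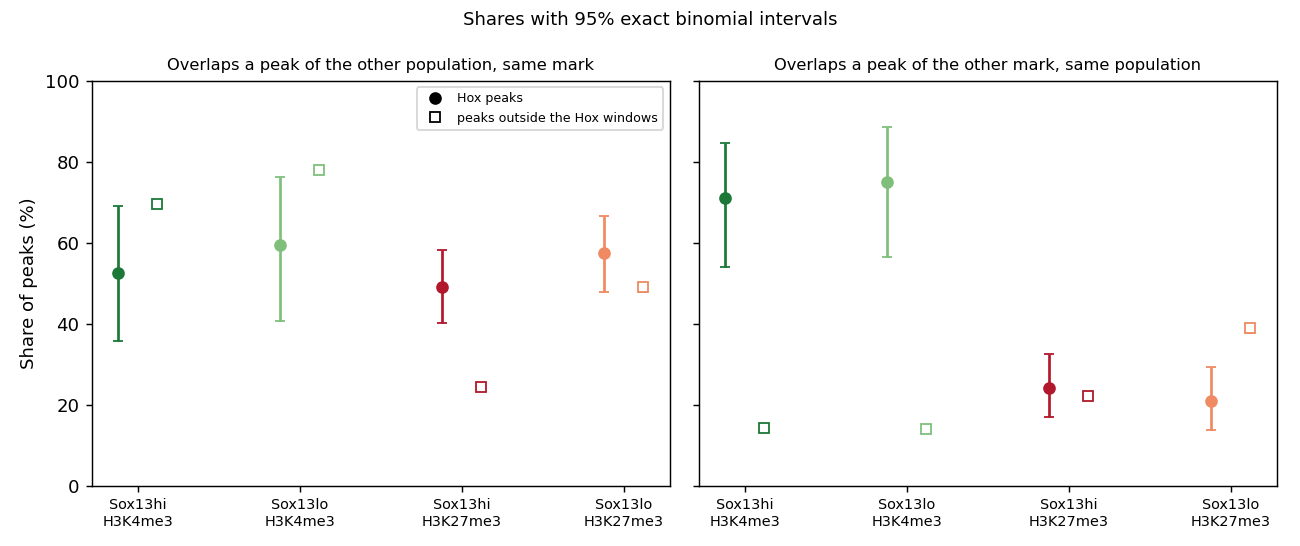
Share of histone peaks (y axis, in percent) that overlap a peak of the other population for the same mark (left) and of the other mark in the same population (right), for Hox peaks (filled, with 95% exact binomial intervals) and for peaks outside the windows (open). On the right, 71.1% and 75.0% of Hox H3K4me3 peaks overlap H3K27me3 against 14.3% and 14.1% outside.

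Merging touching or overlapping histone peaks of the 4 lists gave 178 Hox regions of 37729 in the genome. A region counted as having both marks in a population when a peak of each met it, even if those peaks did not overlap. At chr11:96116451-96116949, for example, the Sox13hi peaks of the marks touch without overlap. The marks were mapped in separate libraries, so both marks in a region need not lie in the same cells. H3K27me3 was present in 167 (93.8%) and H3K4me3 in 48 (26.97%), while in the genome the shares were 46.7% and 63.9%. H3K27me3 alone in both populations was seen in 30 regions (16.9%), against 2.62% of regions genome-wide. Both marks in both populations were seen in 15 (8.43%, 4.79 to 13.5%), against 4.95%, of which 5 were at Hoxa, 3 at Hoxb, 2 at Hoxc and 5 at Hoxd. H3K4me3 alone in both was seen in 3 (1.69%), against 29.7%. These were chr6:52141101-52142449 and chr6:52166851-52167949 at Hoxa, and chr11:96179451-96180749 at Hoxb.

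Most of the remaining regions had H3K27me3 in 1 population. It was present in Sox13hi alone, with no mark in Sox13lo, in 57 regions (32.0%, 25.2 to 39.4%), an interval that includes the genome's 26.1%. In Sox13lo alone it was present in 43 (24.2%, 18.1 to 31.1%, against 7.30%). In Sox13hi 28 regions had both marks (15.7%, against 7.81%), and 10 of these (35.7%, 18.6 to 55.9%, against 9.75% of such regions of the genome) had H3K27me3 alone in Sox13lo. In Sox13lo 23 regions had both (12.9%, against 6.9%), and 6 of these (26.1%, 10.2 to 48.4%, against 8.68% of such regions of the genome) had H3K27me3 alone in Sox13hi. A single Hox region, at Hoxa, had both marks in Sox13hi and H3K4me3 alone in Sox13lo (0.562%, 0.0142 to 3.09%, against 1.55% of the genome's regions).

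**Figure D5:**
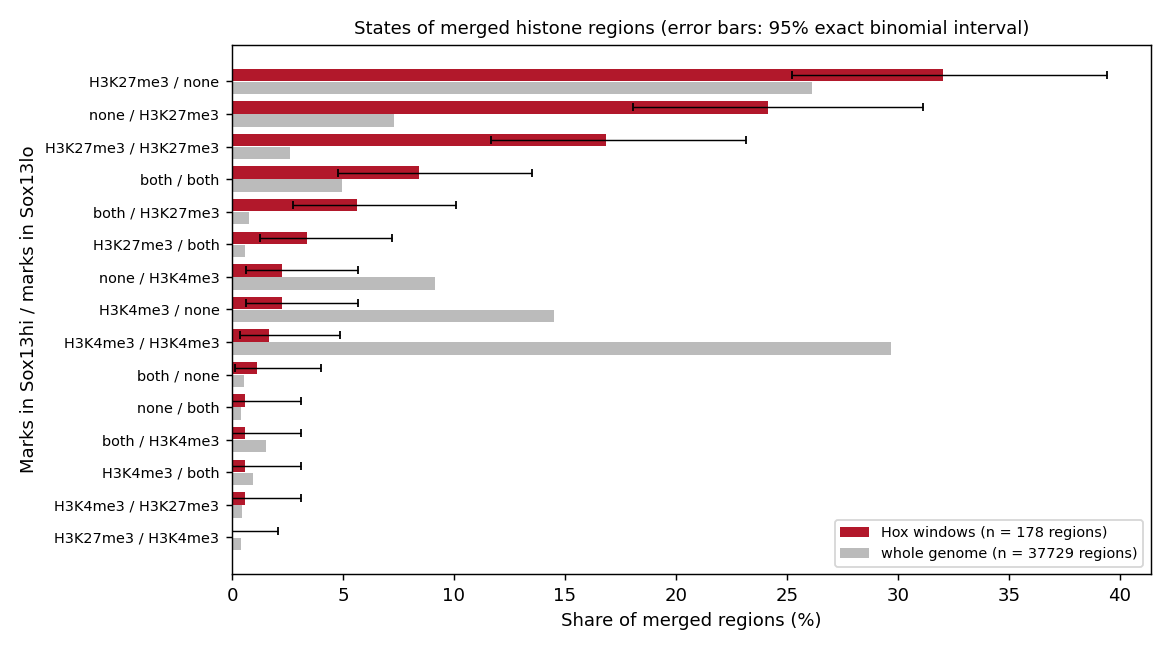
Share of merged histone regions (x axis, in percent) in each combination of marks in Sox13hi and Sox13lo, for 178 Hox regions (red, with 95% exact binomial intervals) and 37729 regions of the whole genome (grey). H3K4me3 alone in both populations holds 29.7% of the genome's regions and 1.69% of the Hox regions, and H3K27me3 alone in both holds 2.62% and 16.9%.

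SOX13 peaks in the windows were few. There was 1 at Hoxa, 2 at Hoxb and 1 at Hoxd, and Hoxc had 0 of 13807 peaks, which allows a share of up to 0.0217% by a limit of 3 counts and up to 0.0267% by the exact interval. Covered sequence was 0.4 kb at Hoxa, 0.6 at Hoxb and 0.25 at Hoxd, amounts reached by 23.8%, 19.5% and 38.6% of tiles of the same length. By number of peaks the shares were 47.3%, 26.3% and 41.6%, and every tile has at least the 0 peaks of Hoxc (100%). The Hox windows were thus ordinary for SOX13 in number of peaks, with 0.625 peaks per 100 kb against 0.523 in the genome.

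The 4 SOX13 peaks are described one by one. At Hoxa, chr6:52184451-52184849 had a score of 10.75 (percentile 80.2) and lay on all 4 histone lists, within the highest-scoring Hox H3K27me3 peak. At Hoxb, chr11:96165001-96165349 had the highest score of the 4, 13.25 (percentile 88.6), and overlapped both marks in Sox13hi and H3K27me3 alone in Sox13lo. The other Hoxb peak, chr11:96151751-96151999, had the lowest score, 6.75 (percentile 35.5), and met no histone peak. Its nearest Sox13hi H3K27me3 peak was 1300 bp away and its nearest H3K4me3 peak 3050 bp. At Hoxd, chr2:74536001-74536249 scored 8.25 (percentile 59.9) and lay on all 4 histone lists, within the highest-scoring Sox13hi H3K27me3 peak of that cluster. So 3 of 4 (75%, 19.4 to 99.4%) lay on both marks in Sox13hi, against 2.44% of the whole SOX13 list and 2.42% of the 13803 SOX13 peaks elsewhere. With 4 peaks the interval is wide. Seen from the marks, 3 of 38 Sox13hi Hox H3K4me3 peaks (7.89%) met a SOX13 peak, against 9.29% of their list. Of the Sox13hi Hox H3K27me3 peaks 3 of 128 (2.34%) did, against 3.27% of theirs. Both histone marks are denser in the windows than in the genome, and how far this raises the share on both marks was not tested.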

How the data were processed

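The 5 ChIP libraries of the series each have 1 deposited peak list with positions and a score per peak, the authors' own value, close to a multiple of 0.25. For the aligner, peak caller, thresholds, control and score definition, the sources used here give nothing. Positions are on mm9, as named in the submitters' processing notes. Per the labels' protocols, cells were fixed with 1% formaldehyde, libraries were amplified for 17 cycles and fragments of 300 to 500 bp were kept. Read numbers were not analysed, so the depth behind each list is unknown, and depth or threshold changes how many peaks are called. Scores were not compared between lists.

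Peak edges lay on a 50 bp grid, with ends 1 bp short of it, and widths were counted to the grid. Starts are printed counting from 1. A Hox peak touched a window, and covered sequence was clipped to it. Overlap meant at least 1 bp. Intervals are 95% Clopper-Pearson, and those of differences are Newcombe-type, built from them. Tiles were all non-overlapping stretches of a window's length, leaving out those touching a Hox window, in place of random windows. The members and lists were chosen with earlier results of these data known. The rule for named peaks takes, per cluster and list, the 3 highest-scoring and the widest, each SOX13 peak, and each histone peak of a highest score decile found in 1 population. Other peaks and regions named in the text were chosen after their values were seen. Added after seeing the data were density ratios, runs of peaks at most 5 kb apart, the 5 kb neighbours, shared bases, correlations over 10 kb stretches, the marks at SOX13 peaks and the shares of regions with both marks that had H3K27me3 alone in the other population. No gene annotation of mm9 was at hand, so marks at gene starts were not analysed.

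Alternatives were the top 50% of each list by score, lists of equal length, peaks within 1 kb merged, peaks wholly inside the windows, an overlap of 50% of the shorter peak, windows trimmed by 20 kb, and for tiles a shifted grid, only tiles with a peak, and autosomes only. The code was tested on simulated data: peaks planted in a copy of the Sox13hi H3K27me3 list with 14714 peaks were recovered in 12 of 12 checks. Overlap counts equalled those of bedtools 2.31.1 in 8 of 8 comparisons. Python 3.11.15, NumPy 2.4.6, pandas 2.3.3, SciPy 1.17.1 and matplotlib 3.10.9 were used.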

Additional observations from a re-analysis of the deposited data

How the results depend on the processing

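Of 182 values recomputed under another setting, 132 stayed inside the interval of the value as reported or, for counts and covered sequence, within 1.5 times of it, and 50 did not. H3K27me3 in Sox13hi Hox windows ranged from 90 to 128 peaks and from 52100 to 80700 bp over the settings. Which population had more H3K27me3 Hox peaks turned at equal list length, from 128 in Sox13hi against 115 in Sox13lo to 90 against 115, and covered sequence from a ratio of 1.11 to 0.985. No paired analysis was possible because no group holds more than 1 library.

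In the top 50% by score, H3K4me3 in the Hox windows dropped to 9 peaks, 9650 bp and 0.0880% of the list in Sox13hi, of which 33.3% matched, and to 4 peaks, 4900 bp and 0.0433% in Sox13lo. Sox13hi H3K27me3 made up 1.21% of its list and Sox13lo H3K27me3 had 67 peaks, of which 70.1% matched. H3K27me3 on H3K4me3 was 7.78% and 2.99%, because few Hox H3K4me3 peaks were left. At equal list length, the Sox13hi H3K27me3 share was 1.22%, with 58.9% matched and 33.3% on H3K4me3. With windows trimmed by 20 kb it was 0.701% of the list. With peaks within 1 kb merged, 29.9% of Sox13lo H3K27me3 was on H3K4me3. These matched and overlap shares are of Hox peaks, and those of the whole lists were not recomputed under these settings. Whether the contrasts between Hox peaks and the lists hold under them was not tested.

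For tiles with at least as much covered, 1 setting counted only tiles with a peak of any of the 5 lists. It gave SOX13 31.6% at Hoxa, 24.3% at Hoxb and 54.7% at Hoxd. H3K4me3, Sox13hi then Sox13lo, was 0.563% and 1.65% at Hoxa, 7.55% and 8.10% at Hoxb, 28.1% and 21.7% at Hoxc, and 1.28% and 7.56% at Hoxd. On autosomes only, SOX13 was 25.2%, 20.7% and 40.6% at Hoxa, Hoxb and Hoxd, H3K4me3 at Hoxc 21.9% and 16.9%, and H3K27me3 0% at Hoxa, Hoxb and Hoxd in both populations. In the top 50%, SOX13 was 14.5%, 21.3% and 23.9% at Hoxa, Hoxb and Hoxd. H3K4me3 was 1.72% and 5.30% at Hoxa, 100% and 24.6% at Hoxb, 100% and 100% at Hoxc, and 4.01% and 100% at Hoxd, where 100% means that no peak was left in the window. H3K27me3 at Hoxc stayed between 0.0364% and 0.0625% in Sox13hi and between 0.00607% and 0.0341% in Sox13lo.

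Depth is unknown for every list and each group has 1 library, so differences between Sox13hi and Sox13lo cannot be told apart from differences between libraries.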
